A study of Homo sapiens with 9 samples.

Results

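The casein kinases CK1 and CK2 were followed in a kinome-wide CRISPR knockout screen of RH4 cells. They were taken as the rows of the sgRNA count table whose gene was CSNK1A1, CSNK1D, CSNK1E, CSNK1G1, CSNK1G2, CSNK1G3, CSNK2A1, CSNK2A2 or CSNK2B. All 9 genes were present, with 4 sgRNAs each, which made 36 of the 3152 sgRNAs and 9 of the 763 targeted genes. RH4 is an established human line of fusion-positive rhabdomyosarcoma, a childhood muscle-lineage tumor, and expresses the oncofusion PAX3::FOXO1. The cells were infected with the Brunello kinome library, in which the lentivirus delivers Cas9 with 1 sgRNA against a kinase or related gene, and were selected with puromycin. Selected cells were then grown over 10 days with 1.5 nM pralatrexate, an antifolate that blocks dihydrofolate reductase, or with vehicle, and a baseline sample was taken at the end of selection, ahead of a recovery of 72 h that preceded treatment. All groups carried the same library in the same line, and each was sequenced as 3 libraries of the sgRNA cassettes amplified from genomic DNA. An sgRNA's share of the reads therefore tracks the share of cells carrying it. Cutting at each target and loss of each protein were not measured.

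CK1 and CK2 are separate families of constitutively active serine/threonine kinases that prefer acidic or already phosphorylated substrates. CK1α, the product of CSNK1A1, sits in the β-catenin destruction complex, where its phosphorylation of β-catenin primes the sites that GSK3 then modifies, and it also restrains p53. CK1δ and CK1ε, made from CSNK1D and CSNK1E, phosphorylate the PER proteins of the circadian clock, and the γ kinases, made from CSNK1G1, CSNK1G2 and CSNK1G3, are anchored at the plasma membrane by lipid and act on the Wnt co-receptor LRP6. CK2 is a tetramer that pairs catalytic subunits, CSNK2A1 (CK2α) or CSNK2A2 (CK2α′), with a dimer of the regulatory subunit CSNK2B (CK2β).

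The genes lie on 8 chromosomes, only CSNK1A1 and CSNK1G3 sharing one (positions on GRCh38, GENCODE annotation). CSNK1A1 spans chr5:149492982-149551471 on the minus strand and CSNK1G3 chr5:123512177-123617049 on the plus strand. CSNK1D spans chr17:82239023-82273700, CSNK1E chr22:38290691-38318084 and CSNK1G1 chr15:64165525-64356173, each on the minus strand, and CSNK1G2 chr19:1941172-1981338 on the plus strand. Of the CK2 genes, CSNK2A1 spans chr20:472498-543835 and CSNK2A2 chr16:58157907-58198106, both on the minus strand, and CSNK2B chr6:31665227-31670343 on the plus strand. CSNK1D overlaps the protein-coding gene SLC16A3, CSNK2B overlaps GPANK1 and LY6G5B, and CSNK1E shares its locus with the readthrough gene TPTEP2-CSNK1E. CSNK1G1 and CSNK2B each also overlap a protein-coding gene that has no symbol in the annotation. These are gene spans, since sgRNA target positions were not used here.

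Some stretches of these genes recur elsewhere in the family. The coding exons of CSNK2A1 hold 144 possible Cas9 target sites (20 bases followed by NGG). Of these, 97, or 67.4%, are found identically within the gene span of CSNK2A3, an intronless gene on chromosome 11 that the library does not target. For CSNK1A1, 16 of 113 such sites (14.2%) also occur in CSNK1A1L, an intronless gene on chromosome 13. No such site in the other members was shared with another member or with these copies. Which of the sgRNAs use shared sites was not determined.

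Total reads per library ran between 2468136 and 4227230 with pralatrexate, between 3194504 and 4602712 with vehicle, and between 3483100 and 4431337 at baseline. Every casein kinase sgRNA passed the filter on low counts, with at least 109 reads in each library. The 99 non-targeting sgRNAs kept in the fit gave the background. Their median log2 fold change was 0.00 for pralatrexate against vehicle (range −0.43 to 0.47), 0.31 for vehicle against baseline (−0.05 to 0.67) and 0.34 for pralatrexate against baseline (−0.17 to 0.66), while the median over all genes was 0.01, 0.02 and 0.01. For the members with the largest differences, values against baseline are therefore also given relative to the non-targeting median.

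Gene levels per library are means, over the 4 sgRNAs, of log2 reads relative to the library total after TMM scaling (CPM). The fold change of a gene is the mean over its sgRNAs of the edgeR log2 fold change, with the SD over those sgRNAs. A gene was called depleted or enriched when robust rank aggregation, which asks whether the sgRNAs of a gene rank together at 1 end of all sgRNAs, gave a false discovery rate (FDR) under 0.05 over all 763 genes. The 3 libraries of a group may be technical replicates, in which case a p-value reflects the spread of library preparation and sequencing and not that of separate cultures.

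Whether pralatrexate changed the fitness of cells lacking a casein kinase was addressed by the comparison with vehicle at day 10. No member was called in either direction by rank aggregation on edgeR p-values. In all, 0.524% of genes were called depleted in this comparison and 0.0% enriched. At an unadjusted p under 0.05, no member was depleted (3.93% of all genes were) and 1, CSNK1A1, was on the enriched side (5.37% of all genes were). Rank aggregation on DESeq2 p-values, limma on gene means and edgeR on summed reads also called none of the 9. Those gene-level tests called few genes of the whole table, 0.524% lower and 0.131% higher for limma and 0.786% lower and 0.131% higher for summed reads. No single sgRNA of the 36 passed edgeR's FDR of 0.05 in this contrast, where 0.0318% of all sgRNAs passed as lower and 0.0% as higher. All 36 lay between −0.40 and 0.30 on the log2 scale and inside the range of the non-targeting sgRNAs, whereas 1.48% of targeting sgRNAs fell below that range and 0.952% above it.

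**Figure D1:**
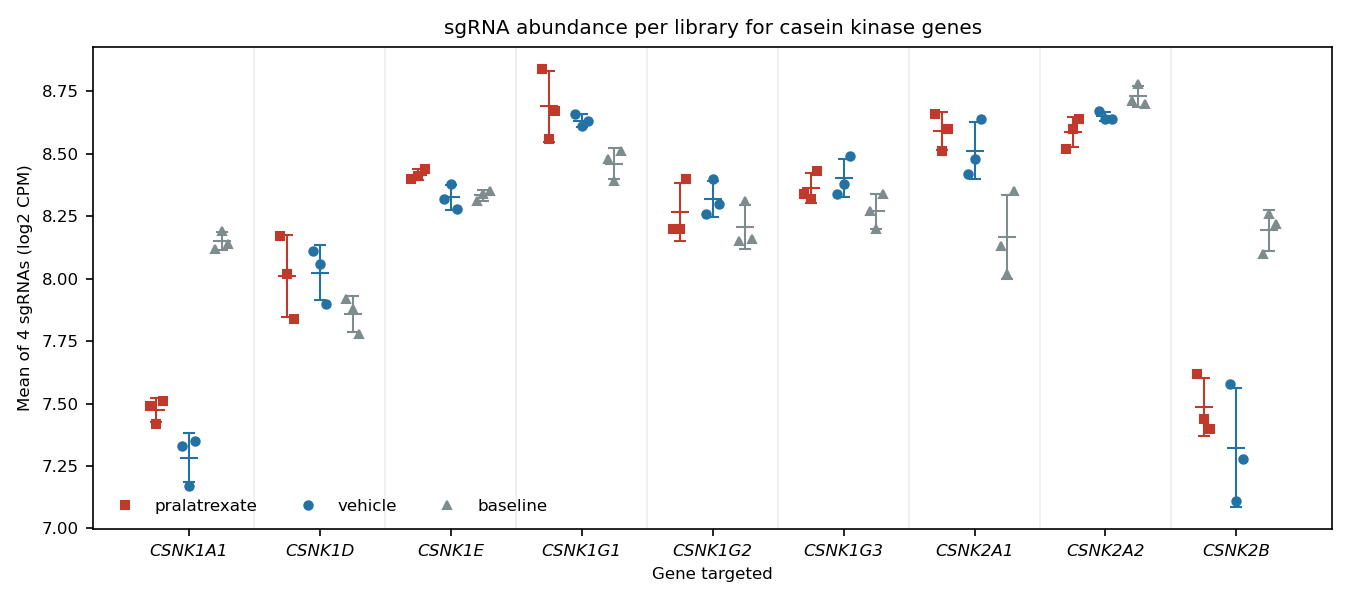
Mean log2 CPM of the 4 sgRNAs of each casein kinase gene (vertical axis) in every library, with squares for pralatrexate, circles for vehicle and triangles for baseline, and lines for the mean and SD over 3 libraries. CSNK1A1 and CSNK2B sit lower in all 6 libraries of day 10 than at baseline, and the pralatrexate and vehicle libraries of the other genes lie close together.

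CSNK1A1 sgRNAs averaged 7.49, 7.42 and 7.51 log2 CPM in pralatrexate libraries, against 7.33, 7.17 and 7.35 in vehicle libraries. The groups did not overlap, and each of the 4 sgRNAs had a positive fold change. The mean difference was 0.19 ± 0.12 on the log2 scale (SD over 4 sgRNAs), a ratio of 1.14 that placed CSNK1A1 746th of 763 genes when ordered from the most depleted. Rank aggregation on edgeR p-values gave FDR 0.762 for enrichment. The limma interval of the difference was 0.04 to 0.34 (95%), with an adjusted p of 0.59.

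CSNK1E was the other member whose libraries did not overlap, at 8.40, 8.41 and 8.44 log2 CPM with pralatrexate and 8.32, 8.38 and 8.28 with vehicle. Its difference of 0.08 ± 0.04 was smaller, and its FDR was 0.963. Across all genes, 3.67% were higher with pralatrexate in this sense and 3.41% lower, and no member was among the lower ones.

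For CSNK2B the pralatrexate libraries were at 7.62, 7.44 and 7.40 log2 CPM and the vehicle libraries at 7.58, 7.11 and 7.28. These overlap, and the 4 sgRNAs were all slightly higher with the drug, at 0.15 ± 0.04 (FDR 0.963). The catalytic subunits differed from vehicle by 0.07 ± 0.11 for CSNK2A1 and −0.07 ± 0.12 for CSNK2A2, and CSNK1D by −0.01 ± 0.16. Among the membrane-anchored γ kinases the differences were 0.07 ± 0.10 for CSNK1G1, −0.04 ± 0.06 for CSNK1G2 and −0.05 ± 0.28 for CSNK1G3. The larger spread of CSNK1G3 came from opposite values of its sgRNA 1, at 0.28, and its sgRNA 3, at −0.40, which had the smallest p of the 36 (0.00753, edgeR FDR 0.698). This sgRNA 3 was at 412, 481 and 656 CPM with vehicle, against 397, 355 and 419 CPM with pralatrexate. Without vehicle library 3 the mean of CSNK1G3 was 0.00. The same vehicle libraries enter vehicle against baseline, where sgRNA 1 was at −0.30 and sgRNA 3 at 0.71. The 95% limma intervals of all 9 members, each for the mean of 4 sgRNAs, lay between −0.22 and 0.38. Larger differences in those means lie outside the intervals, which were not adjusted for the 9 members. They rest on 3 libraries a group and were fitted without pairing of libraries. Because cutting was not measured, the intervals do not bound the effect of pralatrexate on cells that lack the protein.

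The comparison of vehicle with baseline covers the recovery and the 10 days that followed, without drug. Here CSNK1A1 and CSNK2B had the lowest mean values of the family, through 3 of the 4 sgRNAs of CSNK1A1 and 2 of the 4 of CSNK2B, and CSNK2A1 had the highest. Rank aggregation called none of the 9 genes, where 6.68% of all genes were called depleted and 0.393% enriched, and at an unadjusted p under 0.05 it placed CSNK1A1 and CSNK2B on the depleted side (15.1% of all genes) and CSNK1G3 and CSNK2A1 on the enriched side (7.86%). Aggregation on DESeq2 p-values called none either. Tests on the gene as a whole called more: limma on gene means called CSNK1A1 and CSNK2B lower (19.8% of all genes were) and CSNK2A1 higher (9.04%), and edgeR on summed reads called CSNK1A1 and CSNK2B lower (21.0%) and CSNK2A1 and CSNK1G3 higher (14.4%).

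CSNK1A1 stood at 7.33, 7.17 and 7.35 log2 CPM in vehicle libraries, against 8.12, 8.19 and 8.14 in baseline libraries. All vehicle values lay below all baseline values, as they did for 24.4% of all genes. The mean log2 fold change was −0.86 ± 0.52 (SD over 4 sgRNAs), or 0.55 of baseline and −1.18 relative to the non-targeting median. CSNK1A1 was 54th of 763 from the most depleted. Its FDR of 0.0684 by rank aggregation missed the threshold and ran between 0.0502 and 0.0922 when any 1 library was left out. That FDR was 0.107 with scaling on the non-targeting sgRNAs and 0.273 without the strongest sgRNA of the gene. In contrast, limma gave −0.87 (95% interval −1.02 to −0.72, adjusted p = 1.9e-08) and edgeR on summed reads −0.79 (adjusted p = 4.8e-12).

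The 4 sgRNAs against CSNK1A1 did not behave alike. sgRNA 1 was at 173, 158 and 165 CPM in vehicle libraries, against 376, 347 and 327 CPM at baseline, a fall of 1.08 on the log2 scale (edgeR FDR 1.39e-06). sgRNA 4 was at 149, 111 and 128 CPM against 263, 310 and 361 CPM, and fell by 1.27 (FDR 1.14e-05). sgRNA 2 was at 105, 69.8 and 116 CPM against 213, 206 and 160 CPM, and fell by 0.99 (FDR 0.00132). In each of these 3 the vehicle and baseline libraries were fully apart. sgRNA 3, in contrast, was at 246, 341 and 288 CPM with vehicle and 282, 329 and 331 CPM at baseline, a log2 fold change of −0.11 (FDR 0.654). That value lay below every non-targeting sgRNA, as did 40.7% of all targeting sgRNAs.

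CSNK2B, the regulatory subunit of CK2, stood at 7.58, 7.11 and 7.28 log2 CPM in vehicle libraries, against 8.10, 8.26 and 8.22 in baseline libraries. Again the groups did not overlap, and the vehicle libraries varied more than those of most members. Its log2 fold change was −0.84 ± 1.19, or 0.559 of baseline and −1.15 relative to the non-targeting median. That SD was the 16th largest of the 763 genes, whose median was 0.19. Rank aggregation gave FDR 0.267, limma gave −0.87 (95% interval −1.08 to −0.66, adjusted p = 1.96e-06), and edgeR on summed reads gave −0.49 (adjusted p = 1.36e-06).

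That spread separated the sgRNAs of CSNK2B into 2 that dropped and 2 that did not. sgRNA 4 was at 76.0, 28.3 and 54.6 CPM in vehicle libraries, against 287, 280 and 286 CPM at baseline, and fell by 2.43 on the log2 scale to 0.185 of baseline (FDR 2.69e-08), the lowest value of the 36 sgRNAs. sgRNA 1 was at 148, 185 and 182 CPM against 331, 388 and 359 CPM, and fell by 1.06 (FDR 6.99e-06). By contrast, sgRNA 2 was at 628, 533 and 515 CPM with vehicle and 499, 485 and 504 CPM at baseline, with every vehicle library above every baseline library and a log2 fold change of 0.17 (FDR 0.296). sgRNA 3 was at 185, 128 and 110 CPM with vehicle and 117, 164 and 150 CPM at baseline (−0.03, FDR 0.948). Without sgRNA 4 the mean of the gene was −0.31 (FDR 0.96).

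**Figure D2:**
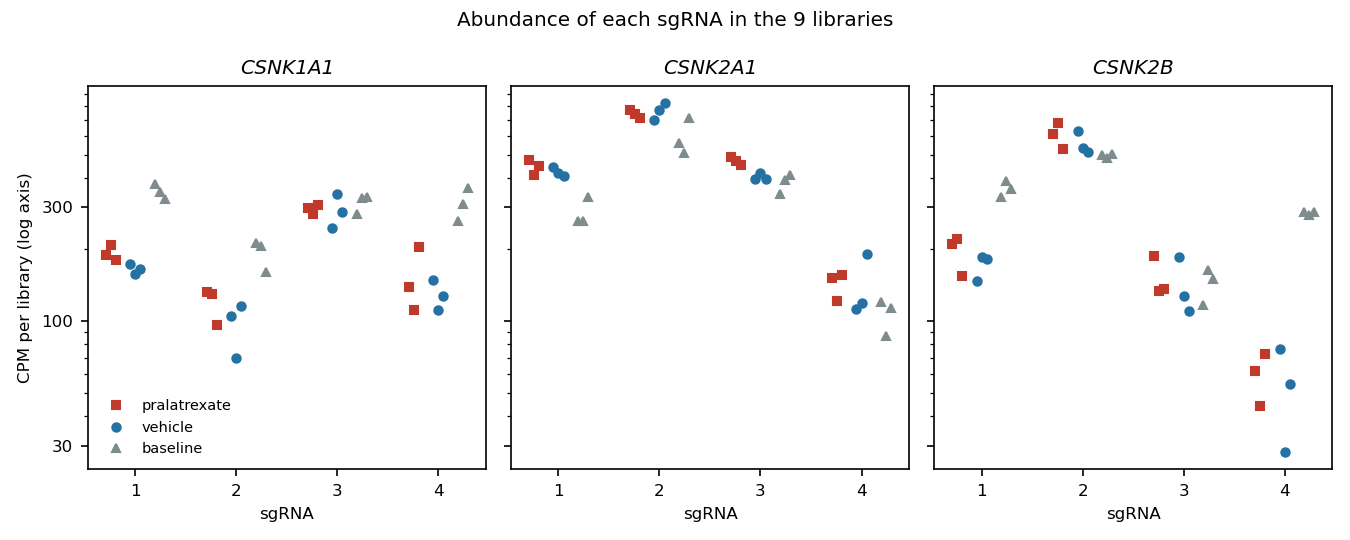
CPM on a log axis for each of the 4 sgRNAs of CSNK1A1, CSNK2A1 and CSNK2B in the 3 pralatrexate (squares), 3 vehicle (circles) and 3 baseline (triangles) libraries. sgRNA 3 of CSNK1A1 and sgRNAs 2 and 3 of CSNK2B do not share the loss of the other sgRNAs of their genes. Pralatrexate and vehicle points overlap except for sgRNA 1 of CSNK1A1 and sgRNA 3 of CSNK2A1, which are higher with pralatrexate.

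CSNK2A1, the main catalytic subunit, had a positive log2 fold change where its regulatory partner had a negative one, though only by the amount of the controls. Its levels were 8.42, 8.48 and 8.64 log2 CPM in vehicle libraries and 8.13, 8.02 and 8.35 in baseline libraries, without overlap. All 4 sgRNAs were higher, with a mean of 0.35 ± 0.20, or 1.27 of baseline, and the gene was 755th of 763 from the most depleted. Rank aggregation gave FDR 0.556, limma an adjusted p of 0.00583 (95% interval 0.16 to 0.53) and edgeR on summed reads an adjusted p of 0.000114. Relative to the non-targeting median the difference was 0.04, and with all libraries scaled on the non-targeting sgRNAs it was 0.02, which put the mean of CSNK2A1 at the level of the controls. sgRNA 1 was the farthest, at 445, 418 and 407 CPM with vehicle against 264, 263 and 331 CPM at baseline (0.57, FDR 0.000895). sgRNA 2 was also called (0.36, FDR 0.0177), but only 1 of the 2 stayed called without vehicle library 3, baseline library 1 or baseline library 2.

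CSNK2A2, the alternative catalytic subunit, stood at 8.67, 8.64 and 8.64 log2 CPM in vehicle libraries and 8.71, 8.78 and 8.70 in baseline libraries. The groups did not overlap, yet the difference was only −0.08 ± 0.28 (FDR 1.0), or −0.39 relative to the non-targeting median. Its sgRNAs split evenly in sign, at 0.24, −0.32, −0.30 and 0.08. sgRNA 2 passed edgeR's threshold as lower (FDR 0.0486), a call lost when any 1 of the 6 libraries was left out.

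The δ and ε kinases showed small differences. CSNK1D was at 8.11, 8.06 and 7.90 log2 CPM in vehicle libraries and 7.92, 7.88 and 7.78 in baseline libraries, which overlap, with a difference of 0.17 ± 0.24 (FDR 1.0). Its sgRNA 3 rose by edgeR's test, at 267, 321 and 257 CPM with vehicle against 215, 184 and 198 CPM at baseline (0.50, FDR 0.014), a call lost without vehicle library 2 or baseline library 2. CSNK1E was at 8.32, 8.38 and 8.28 log2 CPM with vehicle and 8.31, 8.34 and 8.35 at baseline, and none of its sgRNAs passed. Its log2 fold change of 0.00 ± 0.13 was −0.32 relative to the non-targeting median.

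Of the γ kinases, CSNK1G1 and CSNK1G3 had vehicle libraries wholly above baseline, as did 19.5% of all genes. CSNK1G1 was at 8.66, 8.61 and 8.63 log2 CPM with vehicle and 8.48, 8.39 and 8.51 at baseline (0.17 ± 0.18, FDR 0.939). CSNK1G2 was at 8.26, 8.40 and 8.30 with vehicle and 8.15, 8.31 and 8.16 at baseline (0.11 ± 0.23, FDR 1.0), where the groups overlap. CSNK1G3 was at 8.34, 8.38 and 8.49 with vehicle, against 8.27, 8.20 and 8.34 at baseline, with the lowest vehicle library just above the highest baseline library before rounding. Its difference of 0.14 ± 0.44 (FDR 0.634) held 1 sgRNA, number 3, that was above the whole non-targeting range. This sgRNA was at 412, 481 and 656 CPM with vehicle against 307, 281 and 363 CPM at baseline (0.71, FDR 0.000362), and the value without it was −0.05 for the gene. sgRNA 3 of CSNK1G1 was called too (0.39, FDR 0.0384), but not without vehicle library 3 or any 1 of the baseline libraries. With all libraries scaled on the non-targeting sgRNAs the gene means turned negative, at −0.15 for CSNK1G1, −0.22 for CSNK1G2 and −0.19 for CSNK1G3, as did that of CSNK1D at −0.16.

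Counted by sgRNA, 6 of 36 fell in vehicle libraries (16.7%, against 12.8% of all sgRNAs) and 5 rose (13.9%, against 6.26%). The 6 were 3 of CSNK1A1, 2 of CSNK2B and 1 of CSNK2A2, and the 5 were 2 of CSNK2A1 and 1 each of CSNK1D, CSNK1G1 and CSNK1G3. The split depends on what the libraries are scaled to. Scaled on the non-targeting sgRNAs, 15 of the 36 were lower and 1 was higher, as 1389 of all sgRNAs were lower and 13 higher, against 401 and 197 in the usual scaling. Against the range of the non-targeting sgRNAs, 14 lay below (40.7% of all targeting sgRNAs did), 1 above (0.394%) and 21 within. CSNK1A1 had all 4 sgRNAs below that range, while CSNK1E, CSNK1G2, CSNK1G3, CSNK2A2 and CSNK2B had 2 each. By gene, 3 members had vehicle libraries wholly below baseline (24.4% of all genes did) and 3 wholly above (19.5%).

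**Figure D3:**
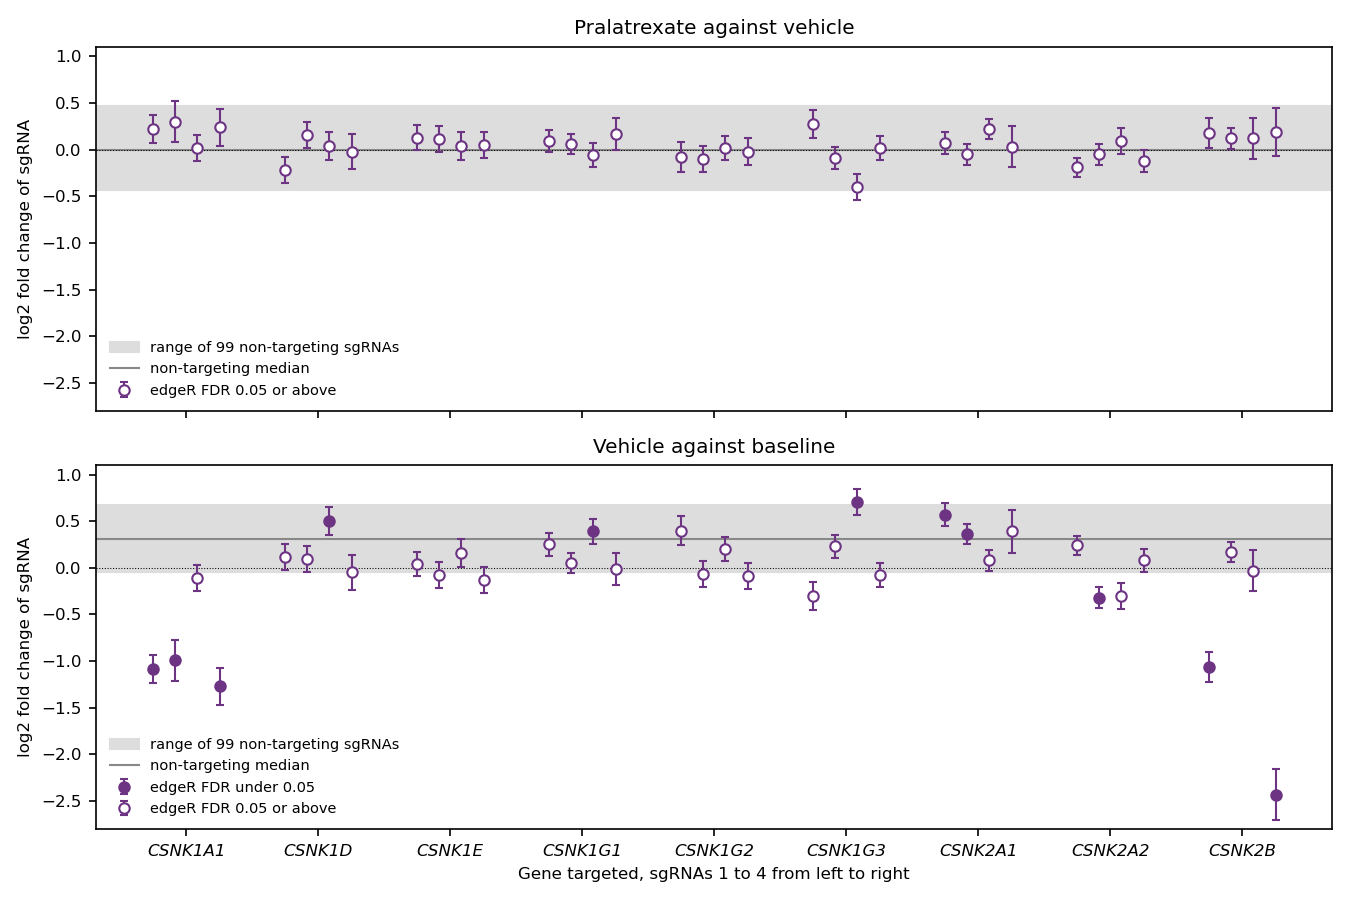
log2 fold change with standard error of each of the 36 sgRNAs for pralatrexate against vehicle (top) and vehicle against baseline (bottom), with the grey band and line for the range and median of 99 non-targeting sgRNAs and filled points for an edgeR FDR under 0.05. In the top panel all 36 lie in the band, and in the bottom panel 3 sgRNAs of CSNK1A1 and 2 of CSNK2B lie near or below −1.

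The pralatrexate libraries set against the same baseline libraries gave each member's second day 10 value. Rank aggregation again called none of the 9 (7.21% of all genes were depleted and 0.262% enriched), with CSNK1A1 on the depleted side at an unadjusted p under 0.05 (14.8% of all genes) and CSNK1G1 and CSNK2A1 on the enriched side (8.78%), and DESeq2 p-values gave no call. CSNK1A1 had a log2 fold change of −0.67 ± 0.41 (FDR 0.17), or −1.0 relative to the non-targeting median, beside −0.86 with vehicle. CSNK2B had −0.69 ± 1.16 (FDR 0.384), or −1.02 relative to the non-targeting median, beside −0.84 with vehicle. Its sgRNA 4, at 61.8, 44.0 and 72.5 CPM with pralatrexate, was at 0.21 of baseline. CSNK2A1 had 0.42 ± 0.15 (FDR 0.217), beside 0.35, and 0.08 relative to the non-targeting median. It became called as enriched (FDR 0.0394) when baseline library 3 was left out.

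limma called CSNK1A1 and CSNK2B lower in this contrast (19.9% of all genes) and CSNK2A1 and CSNK1G1 higher (9.83%), and edgeR on summed reads called the same 4 (22.8% lower, 16.1% higher). For CSNK1G1 the difference was 0.24 ± 0.12, with a limma adjusted p of 0.032 and a value of −0.10 relative to the non-targeting median. The remaining members lay between −0.14 and 0.16. By sgRNA, 6 fell (16.7%, against 13.1% of all) and 4 rose (11.1%, against 5.98%). Against the non-targeting range, 7 lay below (27.7% of all targeting sgRNAs did), 0 above (0.295%) and 29 within. By gene, 3 members had pralatrexate libraries wholly below baseline (CSNK1A1, CSNK2A2 and CSNK2B, as did 25.6% of all genes) and 3 wholly above (CSNK1E, CSNK1G1 and CSNK2A1, as did 20.3%). Both contrasts use the same baseline libraries, so their likeness is not a separate observation.

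Whether a member changed relative to another member was tested within libraries, as the difference of 2 genes' mean log2 CPM. CSNK2A1 minus CSNK2A2 was −0.14 ± 0.13 with vehicle and −0.56 ± 0.20 at baseline (SD, n = 3 each), a change of 0.43 with no overlap (two-sided exact permutation p = 0.1, adjusted 0.2). CSNK1A1 minus CSNK1D was −0.74 ± 0.18 with vehicle and 0.29 ± 0.08 at baseline, a change of −1.03 with no overlap (exact permutation p = 0.1, adjusted 0.2). CSNK1D minus CSNK1E changed by 0.17, also with no overlap (p = 0.1, exact permutation, adjusted 0.2). With 3 libraries against 3 the smallest p possible is 0.1, so these tests could not pass 0.05. For pralatrexate against vehicle the same differences changed by 0.14, 0.20 and −0.10, with exact permutation p of 0.3, 0.3 and 0.4. Adjusted over the 6 tests, these permutation p-values were 0.36, 0.36 and 0.4.

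Lists of related kinases, 3 in all, were set beside the members. The other CK1 group kinases (CSNK1A1L, TTBK1, TTBK2, VRK1, VRK2 and VRK3) had none of 6 called in any contrast. Their median log2 fold change was 0.04 for pralatrexate against vehicle and −0.08 for vehicle against baseline, where all genes had 0.01 and 0.02. VRK1, a nuclear kinase that phosphorylates the chromatin-binding factor BANF1, was the farthest at 0.21 and −0.51 (FDR 0.791 and 0.223), and it was also the farthest for pralatrexate against baseline, at −0.30 ± 0.13 (FDR 0.0962). CSNK1A1L, the intronless relative of CSNK1A1, was at 0.03 and −0.20.

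Among 9 kinases and kinase-like receptors of Wnt signalling, none was called with pralatrexate against vehicle, where TNIK, a kinase that binds the Wnt effector TCF4, was the farthest from 0 at −0.14 ± 0.18 (FDR 0.983). Of the same 9, 2 were enriched with vehicle against baseline, GSK3A (0.43 ± 0.24, FDR 0.021) and GSK3B (0.50 ± 0.21, FDR 0.036), the kinases that act on β-catenin after CK1α. Neither call was stable to the loss of 1 library, with FDR up to 0.277 for GSK3A without vehicle library 2 and 0.149 for GSK3B without vehicle library 1, and DESeq2 gave 0.0869 and 0.0642. Scaled on the non-targeting sgRNAs, the values were 0.10 and 0.17. The list's median was 0.07. For pralatrexate against baseline GSK3B was again called (0.58 ± 0.16, FDR 0.00628), a call lost without pralatrexate library 2 (FDR 0.0891) and a value of 0.27 with non-targeting scaling. GSK3A was not called (0.39 ± 0.29, FDR 0.118).

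AKT1, a growth-signalling kinase that CK2 phosphorylates, was depleted with vehicle against baseline. It fell by 0.51 ± 0.14 (SD over 4 sgRNAs, FDR 0.0242), with FDR 0.058 without vehicle library 1 and 0.0786 without vehicle library 2, and with non-targeting scaling its value was −0.84. For pralatrexate against baseline AKT1 was at −0.47 ± 0.08 (FDR 0.0807). AKT2 was at −0.34 ± 0.15 with vehicle against baseline (SD over the 3 sgRNAs that passed the filter on low counts), with FDR 0.198. Neither was called with pralatrexate against vehicle, where AKT1 was at 0.05 ± 0.21 and AKT2 at 0.10 ± 0.13.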

How the data were processed

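The deposited counts are raw reads per sgRNA, not normalized by the authors, and the submitters' processing notes name Bowtie 1.0.0. The authors' deposited gene tables (scores, p-values, FDR, ranks and log2 fold changes of 2 comparisons) were not used. The study describes the 3 libraries of a group both as cultures and as technical replicates. sgRNAs were numbered here in table order. Of 3152 sgRNAs, 7 with a mean under 30 reads were removed. The other 3145 were fitted with edgeR 4.0.16 in R 4.3.3 (quasi-likelihood, TMM, 3 group means, all 9 libraries). The common dispersion was 0.0173, or a coefficient of variation of 13.2%. One-sided p-values were ranked, sgRNAs with p under 0.25 were aggregated per gene, and gene p-values came from the exact distribution under uniform ranks, adjusted by Benjamini and Hochberg over 763 genes. Both CPM and log2 CPM used the TMM-scaled library totals, with a prior count of 2 for log2 CPM only. Between any pair of libraries within a group, chi-square over its degrees of freedom was 10.7 to 25.7, so none was a repeat. Same-numbered pralatrexate and vehicle libraries correlated in their deviations from the group means (0.17, 0.20 and 0.19), which pairs the day 10 libraries. The pairing comes from these data, and baseline libraries were not paired (−0.03 to 0.07). The main edgeR fit, limma, the summed reads and the main permutation tests did not use the pairing, which entered only the replicate block. Alternatives were DESeq2 1.42.0, limma 3.58.1 on gene means, edgeR on summed reads, scaling on non-targeting sgRNAs, other count filters, a replicate block, single libraries left out and the strongest sgRNA left out. The scripts were tested on simulated counts. The members and lists were chosen with earlier results of these data known. All 9 members are named, and of each list those that passed and the farthest from 0. One gene of these lists is not reported here.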

Additional observations from a re-analysis of the deposited data

How the results depend on the processing

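For members called by rank aggregation, 0 of 9 held in each comparison under DESeq2, every filter, the compared groups alone and scaling on non-targeting sgRNAs. limma on gene means called 3 with vehicle set against baseline and 4 with pralatrexate set against baseline, and edgeR on summed reads called 4 and 4. With 1 library left out the count was 0 to 1 for pralatrexate against baseline (1, CSNK2A1, without baseline library 3) and 0 for the other comparisons. With the replicate block 0 members were called in each comparison, and it changed no call. In the replicate block the exact permutation test of the paralogue differences could not go below p = 0.25. Counts of member sgRNAs were compared across settings after seeing the data. Scaling on the non-targeting sgRNAs moves the median of all genes to −0.31 for vehicle and −0.30 for pralatrexate against baseline. It gave 15 member sgRNAs lower and 1 higher in both. Over all sgRNAs this scaling gave 44.2% lower and 0.413% higher for vehicle, and 41.7% and 0.286% for pralatrexate against baseline. DESeq2 gave 7 higher for pralatrexate against baseline (10.0% of all sgRNAs). With 1 library left out, the higher member sgRNAs numbered 2 to 5 for vehicle against baseline, where 3.5% to 5.85% of all sgRNAs were higher. The 2 came without baseline library 2 (3.66% of all sgRNAs). For pralatrexate against baseline they numbered 1 to 4, where 2.99% to 4.83% of all sgRNAs were higher. The 1 came without baseline library 2 (3.25% of all sgRNAs).

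Signs turned for members that rank aggregation did not call. Of these, limma and summed reads had called CSNK1G1 higher for pralatrexate against baseline, and summed reads CSNK1G3 higher for vehicle against baseline. For pralatrexate against vehicle, CSNK1D was 0.01 with non-targeting scaling, 0.06 without its strongest sgRNA and −0.09 to 0.07 with 1 library left out, and CSNK1G3 was 0.07 without its strongest sgRNA and −0.08 to 0.00 with 1 library left out. The ranges with 1 library left out were −0.02 to 0.13 for CSNK1G1 and −0.12 to 0.00 for CSNK1G2. For vehicle against baseline, non-targeting scaling gave −0.16 for CSNK1D, −0.15 for CSNK1G1, −0.22 for CSNK1G2 and −0.19 for CSNK1G3, DESeq2 gave 0.00 for CSNK1E (−0.03 to 0.02 with 1 library left out), and without the strongest sgRNA CSNK1G3 was −0.05 and CSNK2A2 0.00. For pralatrexate against baseline, non-targeting scaling gave −0.15 for CSNK1D, −0.23 for CSNK1E, −0.07 for CSNK1G1, −0.24 for CSNK1G2 and −0.22 for CSNK1G3, and CSNK1G2 was −0.02 without its strongest sgRNA and −0.01 to 0.12 with 1 library left out. The causes were not tested.

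No molecular identifiers are named in the sources used here, and PCR copies then count as reads. With 4 sgRNAs a gene, rank aggregation weighs agreement among sgRNAs, and the tests on gene means or sums weigh agreement among libraries.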
